A study of Mus musculus with 9 samples.

Results

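The miR-30 miRNAs were followed in mouse serum before and after removal of 5′ tRNA-half fragments, the pieces of cut tRNA that crowd serum small RNA libraries. The family was taken as 7 miRBase identifiers, chosen from their counts in these same libraries, scaled to the miRNA counts of the library. They were miR-30a-5p (MIMAT0000128), miR-30a-3p (MIMAT0000129), miR-30b-5p (MIMAT0000130), miR-30c-5p (MIMAT0000514), miR-30d-5p (MIMAT0000515), miR-30e-5p (MIMAT0000248) and miR-30e-3p (MIMAT0000249). Of these, 6 had counts, out of 876 miRNA identifiers with at least 1 count in any library, and miR-30e-3p was not analysed here. Because the values below chose the members, the levels, ratios and calls of the members are a description and none is a test of the family. All 5 of the 5p members had counts in 9 of 9 libraries, and miR-30a-3p in 7.

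The serum came from healthy male and female mice of the 129/SVj strain, aged 2 to 9 months, with 3 mice to a pool. The RNA of serum pools A, B and C was divided over 3 groups of 3 libraries each. The control fraction received no depletion. The beads fraction was mixed with DNA probes carrying biotin, which bind 5′ tRNA-half fragments, and the probes were pulled out on magnetic streptavidin beads. The RNase H fraction received the same kind of probes and then RNase H, which cuts RNA paired to DNA, followed by DNase I to remove the probes. The labels name 3 pools, whereas the study's methods describe aliquots of a serum pool of 3 mice, so the spread between libraries, and every p-value, may be technical only.

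A miRNA is cut from a hairpin precursor, whose 5′ and 3′ arms give the 5p and the 3p strand. It lowers the output of messenger RNAs that pair with its seed, bases 2 to 8 from the 5′ end. The miR-30 family is made in many tissues, and its 5p strands are known for holding down connective tissue growth factor in the heart and Snail-type regulators of the transition from epithelial to mesenchymal cells. Serum holds miRNAs shed by many tissues, and counts of serum RNA cannot tell fewer source cells from less RNA per cell.

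Mature sequences are shown first because a single base separates miR-30a-5p from miR-30e-5p, whose order differed between the control and the depleted libraries. RefSeq, on build GRCm38.p6, held 5 of the 7 member names, and the capitals mark the seed.
miR-30a-5p: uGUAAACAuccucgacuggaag
miR-30e-5p: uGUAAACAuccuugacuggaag
miR-30c-5p: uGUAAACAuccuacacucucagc
miR-30a-3p: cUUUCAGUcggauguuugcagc
miR-30e-3p: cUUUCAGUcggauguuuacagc
The seed of the 5p strands shown was shared by 4 of 1679 mature RefSeq names, which were miR-30a-5p, miR-30c-5p, miR-30e-5p and miR-384-5p. The seed of the 3p strands was shared by 2 names, miR-30a-3p and miR-30e-3p. Counted from 1 at the 5′ end, miR-30a-5p and miR-30e-5p differed at 1 of 22 bases (C13U). Their 3p strands also differed at 1 of 22 bases (G18A). miR-30c-5p shared its leading 12 bases with both and differed from miR-30a-5p at 5 of 22 compared bases (C13A G14C G18C G19U A20C). Reads were mapped without mismatches, so base 13 alone assigned a read to miR-30a-5p or to miR-30e-5p. miR-30b-5p and miR-30d-5p are named only, because they were not among the RefSeq names, so their seeds were not compared.

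The 6 hairpins of these miRNAs lie in 3 neighbouring pairs of the GRCm38 genome, by the GENCODE annotation. Mir30a (chr1:23272269-23272339, plus strand) lies in no other gene, and Mir30c-2 (chr1:23291701-23291784, plus strand) follows after 19361 bases and overlaps an exon of the long non-coding RNA gene Gm27028. Mir30c-1 (chr4:120769534-120769622, minus strand) and Mir30e (chr4:120772606-120772697, minus strand) lie 2983 bases apart in introns of Nfyc, which encodes a subunit of nuclear transcription factor Y. Mir30b (chr15:68337415-68337510, minus strand) lies in no other gene, and Mir30d (chr15:68341208-68341289, minus strand) lies 3697 bases away and overlaps an exon of the non-coding gene Gm20732. Mir30c-1 and Mir30c-2 give the same miR-30c-5p, so its counts could not be divided between chromosomes 4 and 1.

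Control libraries held 205185 to 330676 miRNA counts, beads libraries 1822088 to 1995956, and RNase H libraries 1199 to 2040. Levels are given as the percent of the miRNA counts of a library. The limit of 3 counts, used where a miRNA had 0 counts, was a share of at most 0.00146% in the control libraries. That share was at most 0.000165% in the beads libraries, and 0.147%, 0.152% and 0.250% in RNase H libraries A, B and C. Lower counts were also listed, so smaller shares could be seen. The depth of the RNase H libraries moved with that group, and its part in the results of that group was not tested. Intervals and limits cover counting error only, because reads were amplified and carry no molecular identifiers. Both comparisons use the same 3 control libraries.

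The family as taken here, the sum of the 6 members with counts, made up 7.75% ± 0.723 (SD, n = 3) of the miRNA counts in the control libraries. In the beads libraries it made up 8.12% ± 0.534 (SD, n = 3). In the RNase H libraries it made up 15.2% ± 6.67 (SD, n = 3). The control values were 8.59%, 7.35% and 7.32% in pools A, B and C, the beads values 8.50%, 7.51% and 8.36%, and the RNase H values 22.6%, 9.71% and 13.3%. Beads and control values overlapped, and all 3 RNase H values were above all others. The mean difference was 0.372 percentage points for beads, and between 0.155 and 0.789 when any single library was left out. For RNase H it was 7.48 percentage points, and 3.78 without RNase H library A, the library with the highest value. Seen as a percent of all annotated small RNA counts, the family stood at 0.461% ± 0.0359 (SD, n = 3) in control, 4.85% ± 0.528 in beads and 0.299% ± 0.103 in RNase H libraries, so the direction of the RNase H difference depended on the denominator.

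**Figure D1:**
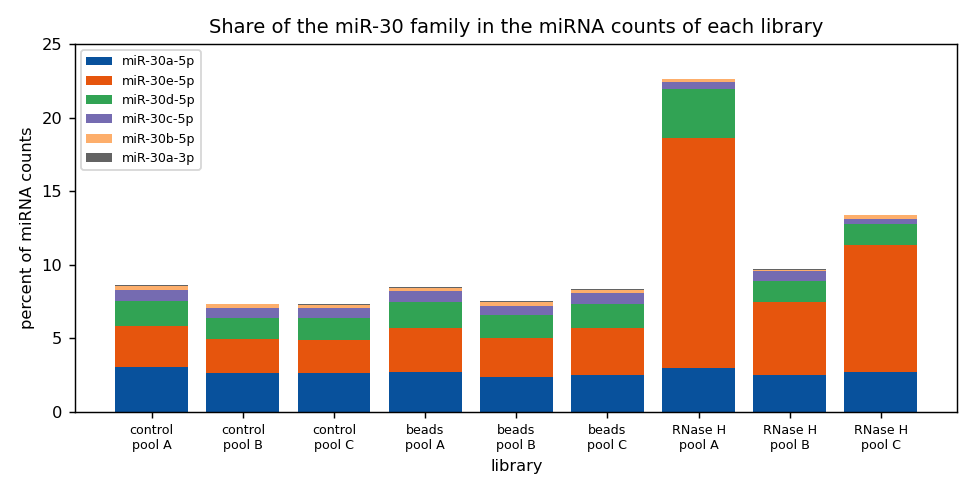
Stacked bars give the percent of miRNA counts (vertical axis, from 0) taken by each of 6 miR-30 miRNAs in the 9 libraries (horizontal axis). Control and beads bars reach 7.32% to 8.59%, and the RNase H bars reach 22.6%, 9.71% and 13.3%, mainly through the segment of miR-30e-5p.

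The order of the members was the same in every control library, with miR-30a-5p above miR-30e-5p, followed by miR-30d-5p, miR-30c-5p, miR-30b-5p and miR-30a-3p. In every beads library miR-30e-5p was above miR-30a-5p and the rest of the order was as in the controls. miR-30e-5p was also the highest member in every RNase H library. Ranges over the 3 libraries of miR-30a-5p and miR-30e-5p overlapped in the control and in the beads group, whereas each lower neighbour was separated from the member above it by more than the spread in both groups. In the RNase H libraries the ranges of miR-30a-5p and miR-30d-5p overlapped, as did those of miR-30b-5p and miR-30a-3p, which rested on 5 counts or fewer. Levels of different miRNAs are read counts of molecules of 22 or 23 bases for the members with a sequence above, and how well each sequence was captured by the library chemistry was not tested.

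**Figure D2:**
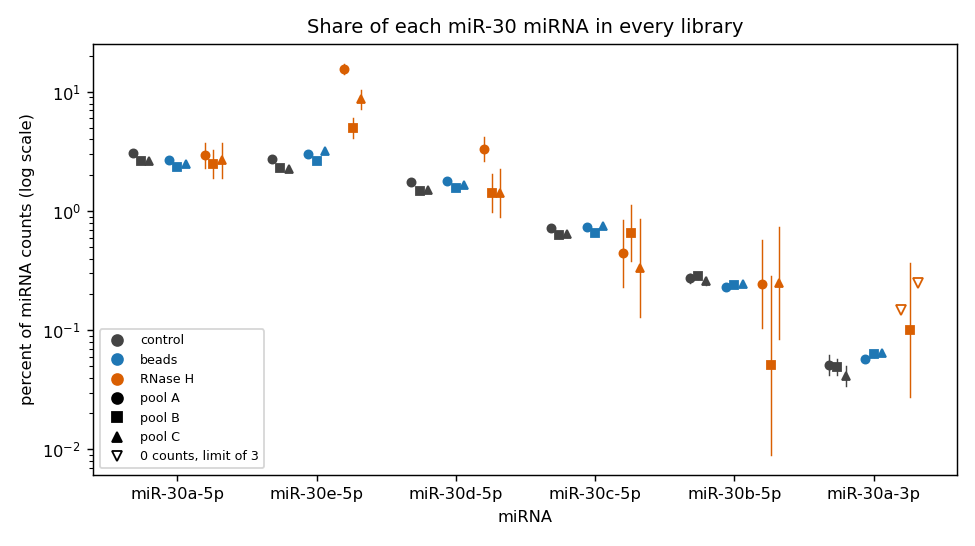
Points give the percent of miRNA counts (log axis) of each miR-30 miRNA in the 9 libraries, with colours for the groups, symbols for the pools and bars for Wilson 95% intervals. Open triangles stand at the 3-count limit where miR-30a-3p had 0 counts, and miR-30e-5p is the member whose RNase H points lie highest above its control points.

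miR-30e-5p, from the intron of Nfyc, held 2.74%, 2.29% and 2.27% of the miRNA counts in control pools A, B and C. In the beads libraries it held 3.01%, 2.65% and 3.20%, and in the RNase H libraries 15.7%, 5.01% and 8.67%. Within each pool the beads value was above the control value, although the lowest beads value was below the highest control value. The RNase H values were all above the control values. They rested on 320, 99 and 104 counts, with Wilson 95% intervals of 14.2 to 17.3%, 4.13 to 6.06% and 7.21 to 10.4%. These intervals do not overlap, so the RNase H libraries differed among themselves by more than the counting error of reads. The sampling of molecules before amplification is not covered by such intervals. By rank, miR-30e-5p was number 11 of all miRNAs in each control library, number 9 in each beads library, and number 1, 5 and 4 in RNase H libraries A, B and C.

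miR-30a-5p, known as a repressor of the autophagy gene Becn1, held 3.06%, 2.62% and 2.61% in the control libraries. The beads values were 2.69%, 2.35% and 2.46%, and the RNase H values 2.94%, 2.48% and 2.67% on 60, 49 and 32 counts. Each beads value was below the control value of its pool, the beads and control groups overlapped, and the RNase H values lay within or close to the control range.

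miR-30d-5p held 1.75%, 1.48% and 1.49% in the control libraries, 1.78%, 1.56% and 1.65% in the beads libraries, and 3.33%, 1.42% and 1.42% in the RNase H libraries. RNase H library A stood apart, with 68 counts against 28 and 17. miR-30c-5p held 0.719%, 0.625% and 0.639% in the control libraries, 0.731%, 0.652% and 0.744% in the beads libraries, and 0.441%, 0.658% and 0.334% in the RNase H libraries, the last on 9, 13 and 4 counts. Both members were slightly higher with beads than without in every pool, and in both the beads and control groups overlapped.

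miR-30b-5p, encoded beside miR-30d-5p, held 0.272%, 0.285% and 0.259% in the control libraries and 0.233%, 0.238% and 0.242% in the beads libraries. The beads values were all below the control values. In the RNase H libraries it had 5, 1 and 3 counts, or 0.245%, 0.0506% and 0.2502%. These values too were below the control values, but over the summed counts the ratio of the RNase H share to the control share was 0.631, with an exact 95% counting interval of 0.288 to 1.20.

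miR-30a-3p, the minor strand of the Mir30a hairpin, held 0.0507%, 0.0487% and 0.0414% in the control libraries on 104, 161 and 103 counts. In the beads libraries it held 0.0569%, 0.0634% and 0.0640% on 1096, 1266 and 1167 counts, all above the control values. In the RNase H libraries it had 0, 2 and 0 counts. The ratio of the RNase H share to the control share was 0.817 over the summed counts, with an exact 95% counting interval of 0.0986 to 2.97, so a difference was not detectable at this depth.

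The depleted and control libraries were then compared across all miRNAs with the quasi-likelihood test of edgeR, and a miRNA was called when its adjusted p was below 0.05. With beads, 26.7% of 307 tested miRNAs were called, 16.6% were called as higher, and 38.8% had shares that did not overlap between the groups. All 6 miR-30 miRNAs passed the filter on low counts. Of these, 2 were called, both as higher (miR-30e-5p and miR-30a-3p), and 2 did not overlap between the groups (miR-30a-3p and miR-30b-5p). The log2 fold change was 0.29 ± 0.060 (SE) for miR-30e-5p and 0.40 ± 0.12 (SE) for miR-30a-3p. The values were -0.14 ± 0.060 for miR-30a-5p, -0.19 ± 0.083 for miR-30b-5p, 0.11 ± 0.071 for miR-30c-5p and 0.09 ± 0.064 for miR-30d-5p, none of which was called. The median of the 6 was 0.10, beside a median of 0.04 over all miRNAs tested, of which the middle 50% spanned -0.22 to 0.40.

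These beads calls depended on the fit. miR-30e-5p was not called with DESeq2 (0.24) or when the RNase H libraries shared the fit (0.25), and miR-30a-3p was not called without control library C (0.30). When serum pools entered as a replicate block, 4 of the 6 were called, beside 29.6% of all 307 miRNAs tested. miR-30a-5p (-0.14) and miR-30b-5p (-0.19) were then called as lower. Both were also called as lower with DESeq2 size factors in edgeR (-0.19 and -0.24), miR-30b-5p with DESeq2 (-0.23), and miR-30a-5p without control library C (-0.19) or without beads library A (-0.18).

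With RNase H, 11.6% of 138 tested miRNAs were called, 6.52% were called as higher, and 40.6% had shares that did not overlap between the groups. All 6 members were again tested, 1 was called, as higher (miR-30e-5p), and 2 did not overlap (miR-30e-5p and miR-30b-5p). The log2 fold change of miR-30e-5p was 1.92 ± 0.26 (SE), number 10 from the highest of the 138. Without RNase H library A it was 1.34 and still called. It was not called when the sum of all annotated counts was taken as library size (0.31), where miR-30b-5p (-2.39) and miR-30c-5p (-1.86) were called as lower instead. This scaling moved the median over all miRNAs from -0.19 to -1.70.

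Among the members that were not called with RNase H, the log2 fold change was -0.14 ± 0.17 (SE) for miR-30a-5p, 0.33 ± 0.24 for miR-30d-5p and -0.52 ± 0.26 for miR-30c-5p. For miR-30b-5p and miR-30a-3p, with 9 and 2 counts over the 3 libraries, it was -0.77 ± 0.44 and -0.41 ± 1.09. The median of the 6 was -0.27, beside -0.19 over all miRNAs tested. miR-30d-5p was at -0.23 without RNase H library A, so the sign of its value rested on that library.

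**Figure D3:**
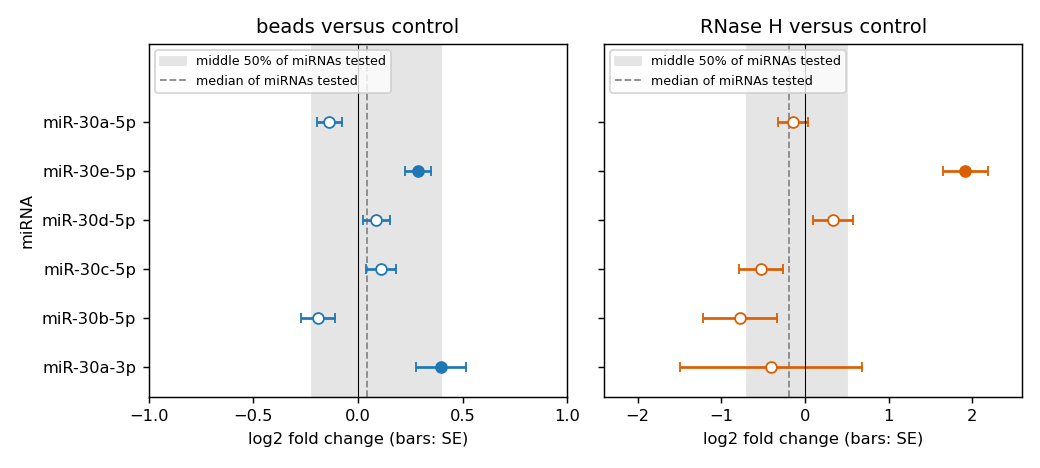
Points give the log2 fold change of each miR-30 miRNA in beads (left) and RNase H (right) against control libraries, with bars for the SE and filled points for those called by edgeR. The grey band holds the middle 50% of all miRNAs tested and the dashed line their median, and miR-30e-5p with RNase H (1.92) lies farthest outside the band.

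Ratios between members of the same library do not depend on the scaling of the library. How often ratios of other miRNA pairs fail to overlap between the groups was not tested. The ratio of miR-30e-5p to miR-30a-5p counts was 0.895, 0.876 and 0.870 in control pools A, B and C. It was 1.12, 1.12 and 1.30 in the beads libraries, and 5.33, 2.02 and 3.25 in the RNase H libraries. The 3 groups did not overlap. Within pools A, B and C the ratio was 1.25, 1.28 and 1.49 times that of the control with beads, and 5.96, 2.31 and 3.74 times with RNase H. The exact 95% counting intervals of the RNase H ratios were 4.04 to 7.15, 1.42 to 2.91 and 2.17 to 4.99. Thus the members that differ at base 13 alone were at unlike ratios in the 3 groups, with the widest spread in the RNase H group.

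The ratio of miR-30d-5p to miR-30a-5p was tighter. It was 0.570, 0.564 and 0.570 in the control libraries and 0.661, 0.661 and 0.670 in the beads libraries, without overlap. In the RNase H libraries it was 1.13, 0.571 and 0.531, which lay on both sides of the control values. The ratio of miR-30c-5p to miR-30a-5p was 0.239 ± 0.00480 (SD, n = 3) in control and 0.284 ± 0.0161 (SD, n = 3) in beads libraries, again without overlap. With miR-30b-5p the ratio to miR-30a-5p was 0.0990 ± 0.0101 (SD, n = 3) and 0.0953 ± 0.00762 (SD, n = 3), which overlapped. Among the 5p members, miR-30e-5p, miR-30d-5p and miR-30c-5p had a higher ratio to miR-30a-5p after beads depletion in every pool. These ratios share a denominator and are not independent. The share of miR-30a-5p itself with beads was 0.878, 0.899 and 0.942 times that of the control in pools A, B and C.

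**Figure D4:**
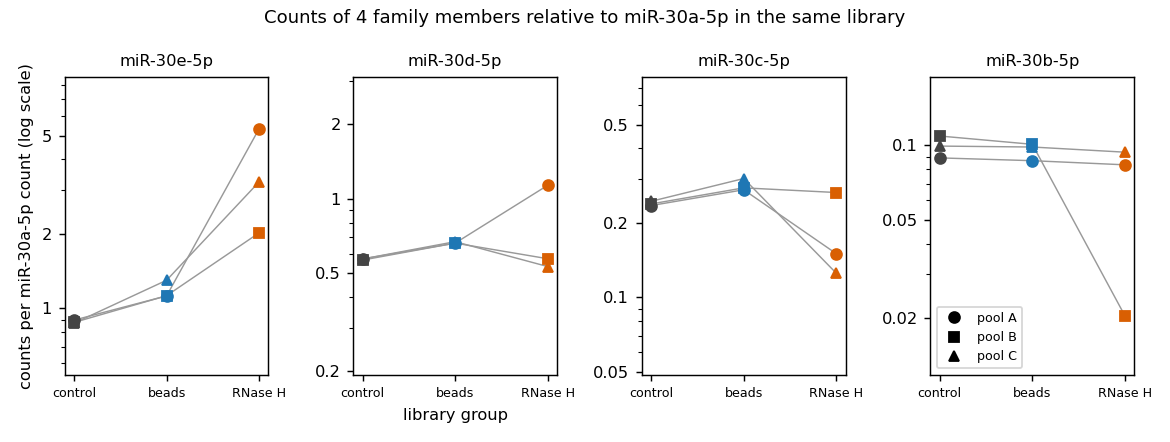
Each panel gives the counts of a member per miR-30a-5p count in the same library (log axis, each panel with its own range) for control, beads and RNase H libraries, with lines joining libraries of the same pool. The ratio of miR-30e-5p is higher in beads (1.12 to 1.30) and RNase H (2.02 to 5.33) than in control libraries (0.870 to 0.895), and the low RNase H points of miR-30b-5p and miR-30c-5p rest on 1 to 13 counts.

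Products of neighbouring hairpins were compared in the same way. The ratio of miR-30b-5p to miR-30d-5p, whose hairpins lie 3697 bases apart, was 0.174 ± 0.0186 (SD, n = 3) in the control libraries and 0.143 ± 0.0112 (SD, n = 3) in the beads libraries. In each pool the beads ratio was lower, at 0.841, 0.790 and 0.844 times the control ratio. As a share of the family, miR-30e-5p was 31.4% ± 0.443 (SD, n = 3) in control, 36.3% ± 1.67 in beads and 61.9% ± 9.24 in RNase H libraries. miR-30a-5p was 35.7% ± 0.0492, 30.8% ± 1.18 and 19.5% ± 6.28 of the family in the same groups.

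Both strands of the Mir30a hairpin could be compared. The control libraries held 60.4, 53.8 and 63.1 counts of miR-30a-5p for each count of miR-30a-3p. The beads libraries held 47.2, 37.1 and 38.5, below all control values. The mean within-pool change was -0.53 ± 0.18 (SD, n = 3) on the log2 scale and negative in 3 of 3 pools. In the RNase H libraries the ratio was 24.5 in pool B, from 49 and 2 counts, with an exact 95% counting interval of 6.43 to 208. In pools A and C the 3p strand had 0 counts, and the 5p counts divided by the limit of 3 counts gave 20 and 10.7. These 2 values take the 5p counts as exact and are not intervals of the kind given for pool B. The 5p strand was the major strand in every library where both had counts. No strand ratio is given for Mir30e, because miR-30e-3p was not analysed here.

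Outside the family, the miRNAs whose pattern over the 9 libraries was most like that of the summed 5p members were MIMAT0000247, MIMAT0000540 and MIMAT0000530, identified by miRBase number because the files pair none with a name. Likeness was the root mean square distance of centred log2 CPM (counts scaled to a fixed library total), among 17 miRNAs with at least 10 counts in every library. The distances were 0.31, 0.35 and 0.48, beside a median of 0.64 over the 17. With miR-30e-5p left out of the sum, the nearest were MIMAT0000517 (0.24), MIMAT0000154 (0.24) and MIMAT0000530 (0.25), beside a median of 0.33. For miR-30e-5p alone the nearest was MIMAT0000540 at 0.60, beside a median of 1.04. MIMAT0000540 held 1.42% ± 0.0261 (SD, n = 3) of the miRNA counts in control, 1.87% ± 0.0833 in beads and 2.73% ± 0.706 in RNase H libraries, and MIMAT0000247 held 0.760% ± 0.0647, 0.652% ± 0.0655 and 1.01% ± 0.159.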

How the data were processed

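Small RNA libraries (TruSeq) of 9 serum RNA fractions were analysed. The authors trimmed reads with cutadapt 1.8.1, dropped short and low-quality reads, mapped the rest to GRCm38 with Bowtie 1.1.2 without mismatches, and took miRNAs from miRBase. The deposited values are raw counts, not normalized, in 2 files per library. The first lists each miRNA with at least 1 count by identifier, and the second lists other small RNAs, of which only the sum was used. Mapping without mismatches leaves out miRNA reads with untemplated ends.

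Groups and pools came from the labels. Members and lists were chosen with earlier results of these data known. Shares are percent of the miRNA counts of a library, with Wilson 95% intervals. Counts were fitted with edgeR 4.0.16 in R 4.3.3 (TMM, filterByExpr, quasi-likelihood test, Benjamini-Hochberg over all miRNAs tested, threshold 0.05), each depleted group with the controls only. The SE of each log2 value was obtained by dividing it by the root of its F statistic. Simulated counts with known changes served to test the scripts. DESeq2 1.42.0, other library sizes, no filter, a joint fit, the replicate block and leaving out each library were alternatives.

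Libraries of a pool share RNA by their labels, so the pools pair them. The main fits did not use this pairing, which entered only in the alternative with the replicate block. Deviations from the group means correlated at r = 0.25, 0.16 and -0.25 in pools A, B and C over 170 miRNAs for beads and control, and at -0.035, -0.25 and 0.12 over 42 for RNase H and control. The sign of r differed between pools in both comparisons. No 2 libraries of a group agreed within sampling noise (chi-square per degree of freedom at least 1.37).

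Named miRNAs are every member, its seed mates in RefSeq and the 3 nearest to each pattern, with a prior count of 1. The files pair identifiers with no names, so counts of other miR-30 arms, of seed mates and of red blood cell, liver and leukocyte markers, and the strand ratios of other hairpins, were planned but not analysed here.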

Additional observations from a re-analysis of the deposited data

How the results depend on the processing

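With beads, 2 of the 6 miRNAs were called, and 2 with DESeq2, which were miR-30a-3p and miR-30b-5p instead of miR-30a-3p and miR-30e-5p. The count became 4 with DESeq2 size factors in edgeR, 6 (all higher) with all annotated counts as library size, 1 in the joint fit of 9 libraries and 4 when serum pools entered as a replicate block. It was 2 to 3 when a library was left out. Over all miRNAs tested with beads, 26.7% were called in the main fit, 19.9% with DESeq2 and 30.3% with DESeq2 size factors. The share was 100% with all annotated counts, 32.1% in the joint fit and 29.6% with the replicate block. When a library was left out it was 19.7% to 35.5%. With RNase H, 1 was called (miR-30e-5p), and 1 whichever library was left out. Over all miRNAs tested, 11.6% were called in the main fit and 5.23% to 17.65% when a library was left out. With all annotated counts as library size 2 were called, both lower (miR-30b-5p and miR-30c-5p), beside 35.7% of all miRNAs tested, and miR-30e-5p was not. The replicate block changed no RNase H call of a member. With all annotated counts as library size, the beads log2 fold changes of miR-30a-5p and miR-30b-5p were 3.19 and 3.12, and that of miR-30d-5p with RNase H was -1.21. miR-30a-5p with RNase H was 0.072 with DESeq2 and 0.072 with its size factors, and ranged from -0.21 to 0.26 when a library was left out. The same range was -9.21 to 0.34 for miR-30a-3p, whose lowest value has 0 RNase H counts and is no bound, -1.19 to 0.028 for miR-30b-5p and -0.23 to 0.90 for miR-30d-5p. Leaving out a control library left 33 to 34 miRNAs tested with RNase H, because the low-count filter follows the median library size, and miR-30b-5p and miR-30a-3p were then not tested.

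With all annotated counts as denominator, the family share differed by 4.39 percentage points (beads minus control) and by -0.162 (RNase H minus control). As a percent of miRNA counts, these differences ranged from 0.155 to 0.789 and from 3.78 to 10.2 when a library was left out, and the strand ratio of miR-30a from -0.64 to -0.47. Why these settings moved the values was not tested.

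Over all miRNAs, beads gave 82 calls of 307 tested (51 higher, 31 lower). With all annotated counts as library size it gave 332 of 332 (all higher), where the median moved from 0.04 to 3.37. RNase H gave 16 of 138 (9 higher, 7 lower), and 27 of 239 with DESeq2 (21 higher, 6 lower, median 0.78 against -0.19). The called share was 11.6% and 11.3%, and the 2 medians are over unlike sets of miRNAs. RNase H gave 51 of 143 with all annotated counts (4 higher, 47 lower). When a library was left out it gave 4 to 14, with 33 to 172 tested. The control level of miR-30a-3p was under the 3-count limit of every RNase H library.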
